A study of Mus musculus with 8 samples.

Results

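The genes described here encode subunits of the oxidative phosphorylation system, with a few factors that help to assemble it, in whole skin of mouse pups aged 7 days. They were chosen by symbol, as all rows of the deposited array table whose RefSeq accession names a mouse gene that starts with Nduf, Sdha, Sdhb, Sdhc, Sdhd, Uqcr, Cox4, Cox5, Cox6, Cox7, Cox8 or Atp5. Of 23232 rows, 43 met this rule, each a single probe for a different gene, and 42 of the 43 had values on at least 3 arrays. The exception, Atp5g2, had a value on 1 array (-1.04). By complex the 42 genes were 16 of complex I, 2 of complex II, 4 of complex III, 12 of complex IV and 8 of complex V.

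Oxidative phosphorylation is the chain of reactions by which mitochondria turn the energy of food into ATP. Complexes I and II pass electrons to ubiquinone, complex III passes them on to cytochrome c, and complex IV hands them to oxygen. Complexes I, III and IV pump protons across the inner membrane, and complex V, the ATP synthase, uses their return to make ATP. Most subunits are encoded in the nucleus, and several subunits of complex IV come in a widespread form and a form of heart and skeletal muscle. In skin, keratinocytes and hair follicles also make much of their ATP by glycolysis, while the thin muscle sheet under the dermis is richer in mitochondria.

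Near naked hairless mutants, known as carriers of a mutation at the hairless locus, were set against wild type mice of the same age on 8 arrays with 2 colours. The sources used here give neither the strain nor the mutant's genotype at the locus. According to the design text the 5 biological replicates came from a single litter. No label ties an array to an animal, so arrays are the n of every value, some must share an animal, and p-values are too small and measure in part a technical spread. Mutant RNA carried Cy5 on arrays 2, 4, 6 and 7 and Cy3 on arrays 1, 3, 5 and 8. Values are log ratios of the channels, read as log2 of mutant over wild type. Neither the base nor the direction is stated. Mutant over wild type is the likely direction, since the labels put the sample in channel 1 and the design text names the mutant first. Under the opposite direction every sign below would turn.

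An array held values for between 41.3% and 88.3% of its rows, and for between 21 and 40 of the 42 genes. Arrays 2, 3 and 8 had the widest spread over all rows (SD 1.60, 1.32 and 1.10), and array 5 the narrowest (0.57). Ratios carry no level of a transcript, so the labelled tissue could not be checked from them. Among 10 fixed markers of keratinocytes 4 had values on at least 3 arrays, Krt1 and Col17a1 among them, and of 10 fibroblast markers 8 had. So had 12 of 21 markers of skeletal muscle, 5 of 5 of brown adipocytes and 6 of 6 of mast cells. Which markers gave a value thus does not tell the tissue. In whole skin, fewer cells of a type and less RNA per cell cannot be told apart.

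Among the genes of the 5 complexes that could be fitted, 1 was past the threshold, a share close to that of all genes. The complexes were not tested as a group. To be fitted, a gene needed values on 3 or more of the 4 arrays with each dye orientation. Of the 28 genes that had them, Ndufa2 of complex I was lower in mutant skin and none was higher (limma with a dye term, adjusted p below 0.05). At an unadjusted p below 0.05, 4 were higher and 2 lower, or 21.4% of the 28 against 19.5% of all genes (10.2% higher and 9.31% lower). Of all 3779 genes fitted, 3.47% were past the threshold (2.8% lower and 0.662% higher), so that 1 of 28 was close to the background. With 11974 probes fitted in place of genes, 4.21% passed (3.53% lower and 0.676% higher), and Ndufa2 was the 1 of the 28. Each of the 28 had a single probe, so its values and ratio were the same there, and the call is no separate support. Fitted ratios were above 0 for 16 genes and below 0 for 12, a share above 0 of 57.1% against 55.3% of all genes. Their median was 0.12, against 0.05 over all genes, and the median size without sign was 0.24 against 0.27. The 95% interval lay wholly between -1 and 1 for 19 of the 28. Some single ratios rested on 1 array. Leaving out some array turned the sign or moved the ratio by over 1.5 times in 22 of the 28. The other 6 were Ndufa2, Ndufa12, Ndufb7, Ndufb11, Cox8a and Atp5a1. Ratios near 0 pass this limit by small shifts, as did Cox6b1, at 0.15 and from 0.089 to 0.22 without 1 array. The same share was not computed over all genes.

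**Figure D1:**
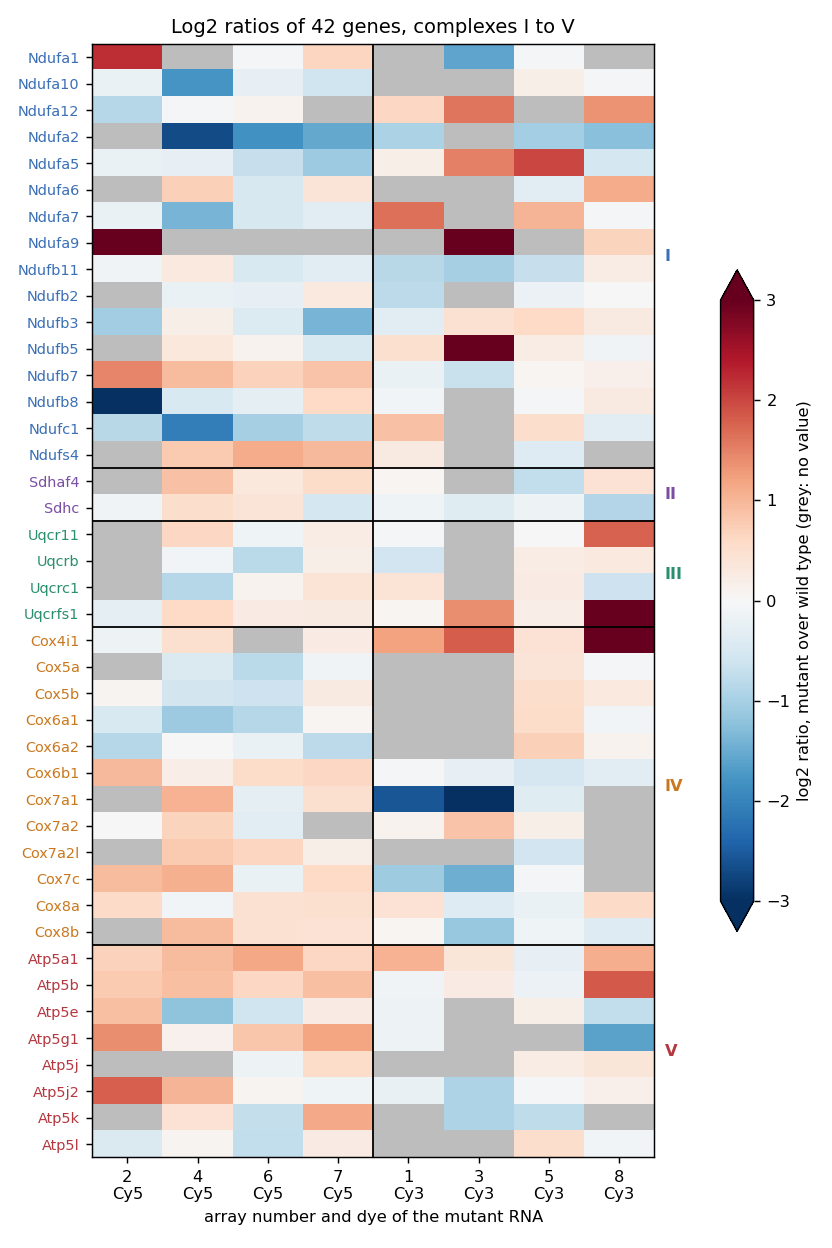
Log2 ratio of mutant over wild type for each of the 42 genes (lines, grouped by complex I to V) on each array (columns, first the 4 with mutant RNA in Cy5, then the 4 with it in Cy3); colours are limited to between -3 and 3, and grey marks a missing value. Ndufa2 is blue on all 6 arrays that measured it, most other genes change colour between arrays, and arrays 1, 2 and 3 hold most of the grey cells.

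Across arrays the median of the 42 genes stayed near 0. It was -0.04, -0.10, -0.25, 0.21, 0.01, -0.20, 0.27 and 0.14 on arrays 1 to 8, above 0 on 4 and below 0 on 4, with a mean of 0.0044 ± 0.19 (SD, n = 8). By complex, the median fitted ratio was -0.19 for the 11 fitted genes of complex I, 0.05 for the 2 of complex II, 0.18 for the 4 of complex III, 0.15 for the 7 of complex IV and 0.42 for the 4 of complex V. Single genes ran from -1.54 to 0.46 within complex I and from -0.88 to 1.33 within complex IV. No test was made of the medians, and some rested on 1 array. That of complex I was 0.0055 without array 2 and -0.069 without array 1, and its medians by array lay above 0 on 4 arrays and below 0 on 4. That of complex V was 0.27 without array 8.

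**Figure D2:**
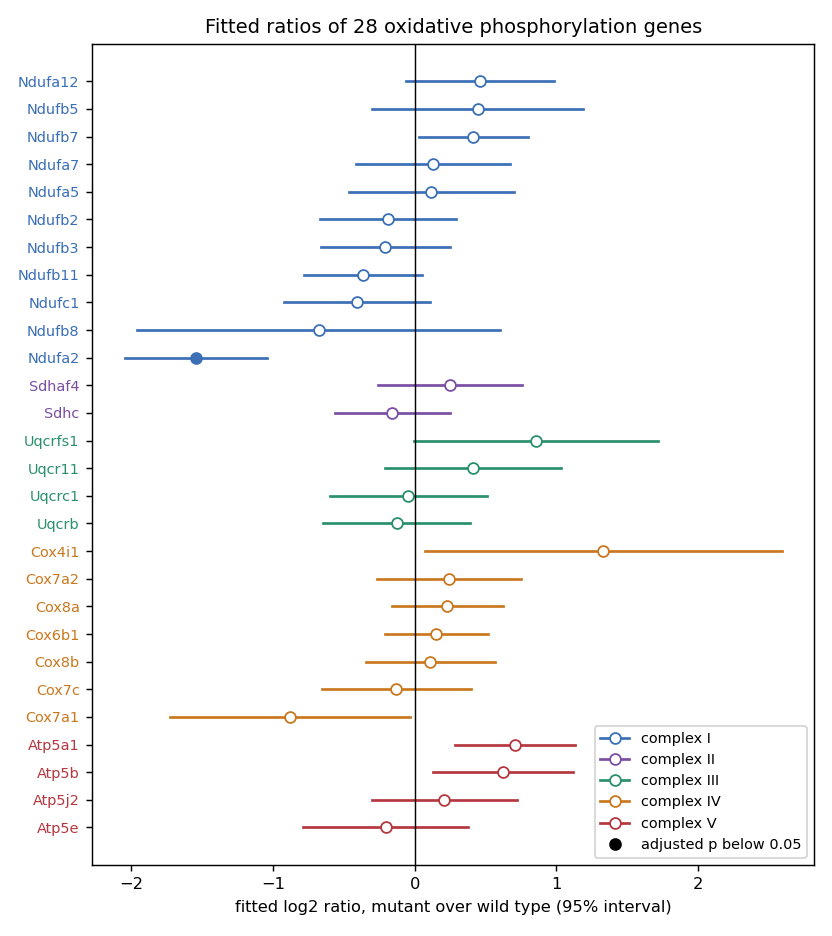
Fitted log2 ratio of mutant over wild type (points) with its 95% interval (lines) for the 28 genes fitted, coloured by complex; a filled point marks an adjusted p below 0.05. The filled point is Ndufa2 at -1.54, and the intervals of Atp5a1, Atp5b, Cox4i1, Ndufb7 and Cox7a1 also leave out 0 before adjustment.

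Ndufa2 is an accessory subunit of the peripheral arm of complex I, the arm that takes electrons from NADH. Its ratios were -0.95 on array 1, -2.69 on array 4, -1.03 on array 5, -1.81 on array 6, -1.53 on array 7 and -1.26 on array 8. Every array that measured the gene was thus below 0, as for 4.13% of all genes fitted, with the 3 arrays of mutant RNA in Cy5 (mean -2.01 ± 0.60, SD, n = 3) all below the 3 with it in Cy3 (-1.08 ± 0.16). The fitted ratio was -1.54 ± 0.22 (SE, 95% interval -2.04 to -1.04, limma adjusted p = 0.00894). It ranked 19 from the lowest of the 3779. Arrays 2 and 3 gave no value. Read as Cy5 over Cy3, with the arrays of 1 orientation turned, the table would give Ndufa2 a ratio of -0.47 (adjusted p = 0.185), and its call would be lost.

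The other genes of the peripheral arm did not follow Ndufa2. Of its 7 genes 4 were fitted, and Ndufa12, Ndufa7 and Ndufa5 had ratios of 0.46, 0.13 and 0.12, none past the test (adjusted p = 0.317, 0.804 and 0.837). Ndufa12, the highest of complex I, was measured at 0.62, 1.60 and 1.35 with mutant RNA in Cy3 (arrays 1, 3 and 8) and at -0.86, -0.03 and 0.10 with it in Cy5 (arrays 2, 4 and 6), so that the orientations did not overlap. Ndufs4, whose loss in humans is known to cause Leigh syndrome, stood at 0.27, 0.78, -0.39, 1.11 and 0.98 on arrays 1, 4, 5, 6 and 7, and Ndufa6 had a mean of 0.28 ± 0.68 (SD, n = 5). Ndufa9, a subunit near the ubiquinone site, had values of 4.54 on array 2, 5.02 on array 3 and 0.66 on array 8. These 3 arrays had the widest spread of all, and no other array measured the gene.

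In the membrane arm, which carries the proton pumps, 9 genes had values and 7 were fitted, 5 of them below 0 and 2 above, with none past the test. At an unadjusted p below 0.05 Ndufb7 was the 1 gene of the arm. Ndufb7 stood at 1.46, 0.96, 0.68 and 0.85 with mutant RNA in Cy5 (arrays 2, 4, 6 and 7) and at -0.19, -0.66, 0.06 and 0.15 with it in Cy3 (arrays 1, 3, 5 and 8). All 4 values of the first orientation lay above all 4 of the second, around a fitted ratio of 0.41 ± 0.18 (SE, adjusted p = 0.223). Ndufc1 was the reverse, with a mean of -1.17 ± 0.61 (SD, n = 4) in Cy5 and of 0.36 ± 0.63 (n = 3) in Cy3. Ndufb8 had the lowest fitted ratio of the arm, -0.68 ± 0.58 (SE), through a value of -5.52 on array 2; its other 6 values lay between -0.45 and 0.59, and without array 2 the ratio was 0.0055. Ndufb11 at -0.36 was below 0 on 6 of 8 arrays (adjusted p = 0.321), and Ndufb5 at 0.44 was at 0.096 without array 3. The remaining members, Ndufb2 and Ndufb3, stood at -0.19 and -0.21, and the unfitted Ndufa1 and Ndufa10 had means of 0.23 ± 1.37 (SD, n = 5) and -0.45 ± 0.70 (n = 6).

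Complex II was seen through Sdhc, a subunit that anchors it in the membrane, and Sdhaf4, a factor that helps to assemble it. Sdhc was measured at -0.13, -0.11, -0.36, 0.53, -0.16, 0.38, -0.53 and -0.87 on arrays 1 to 8, below 0 on 6. Sdhaf4 stood at 0.05, 0.87, -0.75, 0.33, 0.55 and 0.44 on arrays 1, 4, 5, 6, 7 and 8, above 0 on 5 of 6. Their fitted ratios of -0.16 ± 0.18 and 0.25 ± 0.23 (SE) did not pass the test (adjusted p = 0.671 and 0.583).

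In complex III the highest ratio was that of Uqcrfs1, the Rieske iron-sulfur protein that takes electrons from ubiquinol. Its values on arrays 1 to 8 were 0.05, -0.27, 1.39, 0.59, 0.19, 0.24, 0.27 and 4.39. Thus 7 of 8 arrays were above 0, with array 8 far above the rest. The fitted ratio of 0.86 ± 0.39 (SE) did not pass (adjusted p = 0.257) and was 0.38 without array 8. Uqcrb, a small subunit, had the lowest, at -0.13, from values of -0.57, -0.08, 0.21, -0.81, 0.18 and 0.30 on arrays 1, 4, 5, 6, 7 and 8 that split evenly around 0. The core protein gene Uqcrc1 stood at -0.05. Uqcr11, a small subunit, stood at 0.41, with a value of 1.77 on array 8, and at 0.11 without that array.

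Among the genes of complex IV, cytochrome c oxidase, none passed the test. Cox4i1, the form of subunit 4 found in most tissues, stood at 1.21, -0.16, 1.83, 0.47, 0.44, 0.24 and 6.45 on arrays 1, 2, 3, 4, 5, 7 and 8. It was above 0 on 6 of 7 arrays, and array 8 again stood far above the others. The fitted ratio was 1.33 ± 0.57 (SE, adjusted p = 0.229), and 0.67 without array 8. It was past the threshold with quantile normalization (0.97, adjusted p = 0.0492) and robust regression (0.85, 0.029). Those settings called 350 and 378 of all 3779 genes, against 131 in the main fit. The adjusted p of Cox4i1 ran from 0.029 to 0.38 over the alternatives other than leaving out an array. Of 12 genes of the complex 7 were fitted, 5 above 0 and 2 below. On the same array 8, 2 of 12 muscle markers with a value, Eno3 and Tnni1, stood at 7.64 and 6.55, while the 12 began at -0.97 and had a median of 0.47. Genes outside the muscle list were as high there, such as Hspa9, a mitochondrial chaperone, at 6.46. Of the 3532 fitted genes with a value on array 8, 1.93% were above 4. Whether these values share a source was not tested.

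Subunits 6a, 7a and 8 of complex IV each had a widespread and a muscle form with values. The muscle form of subunit 7a, Cox7a1, had the lowest fitted ratio of the complex, -0.88 ± 0.38 (SE, adjusted p = 0.236). Its values were -2.57, -3.61 and -0.37 with mutant RNA in Cy3 (arrays 1, 3 and 5) and 1.05, -0.26 and 0.47 with it in Cy5 (arrays 4, 6 and 7). The low ratio came from arrays 1 and 3, and on arrays 4 to 8 alone it was 0.024. Cox7a2, the widespread form, stood at 0.10, -0.0022, 0.86, 0.66, 0.17 and -0.34 on arrays 1 to 6, with a fitted ratio of 0.24 ± 0.23 (SE).

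For subunit 8, the widespread Cox8a was measured at 0.44, 0.59, -0.38, -0.07, -0.20, 0.45, 0.47 and 0.56 on arrays 1 to 8. The muscle form Cox8b stood at 0.06, -1.14, 0.96, -0.13, 0.47, 0.44 and -0.38 on arrays 1, 3, 4, 5, 6, 7 and 8. Both went to either side of 0, with fitted ratios of 0.23 ± 0.18 and 0.11 ± 0.21 (SE). For subunit 6a neither form was fitted. Cox6a1, the widespread form, was at -0.46, -1.08, 0.56, -0.85, 0.05 and -0.09 on arrays 2, 4, 5, 6, 7 and 8, and the muscle form Cox6a2 at -0.85, 0.02, 0.71, -0.21, -0.78 and 0.10 on the same arrays. Both were highest on array 5.

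All 3 muscle forms had values on arrays 4 to 7 alone, where their median was 0.96, -0.13, -0.21 and 0.44. On the other arrays it came from fewer genes. It was -1.25, -2.38 and -0.14 on arrays 1, 3 and 8, and -0.85 on array 2, from Cox6a2 alone. The count of 6 of 8 arrays below 0 thus rests in part on missing values. Muscle markers other than these genes, 12 of 21 with values, had a median above 0 on 4 arrays and below 0 on 4, from -0.64 on array 2 to 1.22 on array 3. None of the 7 muscle markers fitted passed (limma), with ratios above 0 for 3 and below 0 for 4. At an unadjusted p below 0.05, 2 were lower, Tnnt3 and Mb, and 0 higher. Of all genes, 9.31% were lower and 10.2% higher at that limit. The 7 ranged from Tnnt3, a troponin of fast muscle, at -1.23 (adjusted p = 0.0721) to Eno3 at 1.32. Eno3 was at 0.47 without array 8, while Mb, at -0.53, was below 0 on all 7 arrays that measured it. The part of muscle content in the values of the muscle forms was not tested. The remaining unfitted genes of the complex had means of -0.20 ± 0.45 (SD, n = 5) for Cox5a and -0.0009 ± 0.48 (n = 6) for Cox5b. Cox7a2l, a factor of supercomplex assembly, had a mean of 0.26 ± 0.61 (n = 4). Cox6b1 and Cox7c had fitted ratios of 0.15 ± 0.17 and -0.13 ± 0.24 (SE). Their means were 0.59 and 0.60 with mutant RNA in Cy5, and -0.28 and -0.86 with it in Cy3.

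The catalytic head of complex V held the genes nearest to a call in the higher direction. Atp5a1 encodes its alpha subunit and was measured at 1.04, 0.69, 0.35, 0.95, -0.24, 1.17, 0.61 and 1.08 on arrays 1 to 8. Array 5 alone was below 0. The fitted ratio was 0.71 ± 0.19 (SE, 95% interval 0.28 to 1.13) with an adjusted p of 0.0721, in limma, just short of the threshold. Its means were close in the 2 orientations, 0.85 ± 0.25 (SD, n = 4) in Cy5 and 0.56 ± 0.63 (n = 4) in Cy3. Atp5a1 was past the threshold with quantile normalization (0.78, adjusted p = 0.0456), with array weights (0.70, 0.018) and in a robust regression (0.74, 0.0207). Its adjusted p ran from 0.018 to 0.625 over those same alternatives. More genes passed in general under these settings, 350, 491 and 378 of 3779, against 131 in the main fit.

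Atp5b encodes the beta subunit, which carries the catalytic sites and binds to the alpha subunit in the head. Its values were -0.12, 0.78, 0.25, 0.90, -0.19, 0.63, 0.91 and 1.83 on arrays 1 to 8, above 0 on 6 and, as for Atp5a1, lowest on array 5. The fitted ratio was 0.62 ± 0.23 (SE, adjusted p = 0.163) and 0.39 without array 8. Atp5e, the epsilon subunit of the same head and stalk, did not share this, at -0.16, 0.90, -1.22, 0.18, -0.59, 0.24 and -0.74 on arrays 1, 2, 4, 5, 6, 7 and 8 and a fitted ratio of -0.20 ± 0.26 (SE).

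In the membrane part of the synthase 5 genes had values and 1 was fitted. That gene, Atp5j2, stood at 0.21 ± 0.23 (SE), above 0 on 4 of 8 arrays, with 1.80 on array 2 and -0.94 on array 3, and at 0.025 without array 2. Atp5g1 encodes the subunit of the proton-driven ring and was at 1.39, 0.12, 0.83 and 1.17 on arrays 2, 4, 6 and 7, all with mutant RNA in Cy5, and at -0.16 and -1.60 on arrays 1 and 8, with it in Cy3. The other 3 had means of 0.25 ± 0.30 (SD, n = 4) for Atp5j, -0.17 ± 0.90 (n = 5) for Atp5k and -0.07 ± 0.46 (n = 6) for Atp5l, without a common direction.

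**Figure D3:**
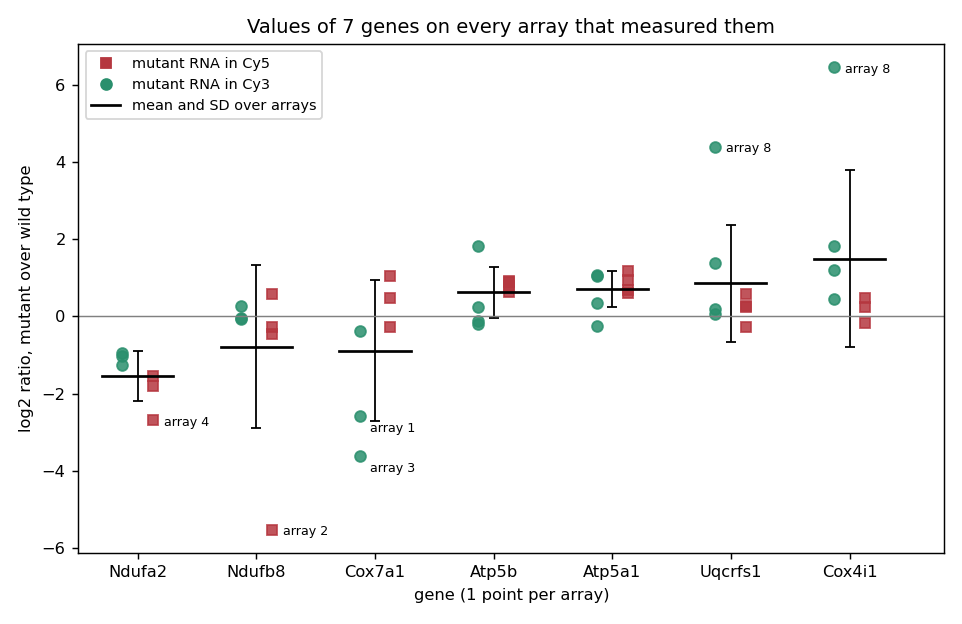
Log2 ratio of mutant over wild type (y axis) on each array that measured the gene (1 point per array) for 7 genes, with the mean and SD over arrays in black; squares have the mutant RNA in Cy5 and circles in Cy3. Ndufa2 lies below 0 on all 6 arrays, while the means of Ndufb8, Uqcrfs1 and Cox4i1 follow a single point on array 2 or array 8.

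The sign of many of these ratios went with the dye orientation. The means of the 2 orientations had opposite signs in 16 of the 28 fitted genes, or 57.1%, against 58.7% of all genes fitted. The dye part of the ratio, which is the Cy5 mean minus the Cy3 mean, had a median size of 0.91 among the 28 genes and of 0.75 over all genes. No gene of the 28 passed the test of it (limma, lowest adjusted p = 0.0741; 10 at an unadjusted p below 0.05), where 1.75% of all genes passed, and 30.9% before adjustment against 35.7% of the 28. Its largest values were 2.61 for Cox7a1 and -2.30 for Cox4i1. In complex I it was below 0 for 8 of 11 genes and in complex III for 4 of 4. It was above 0 for 2 of 2 genes in complex II, 5 of 7 in complex IV and 4 of 4 in complex V. Over all genes it was below 0 for 2081 of 3779 and above 0 for 1698. A difference between complexes in this was not tested.

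**Figure D4:**
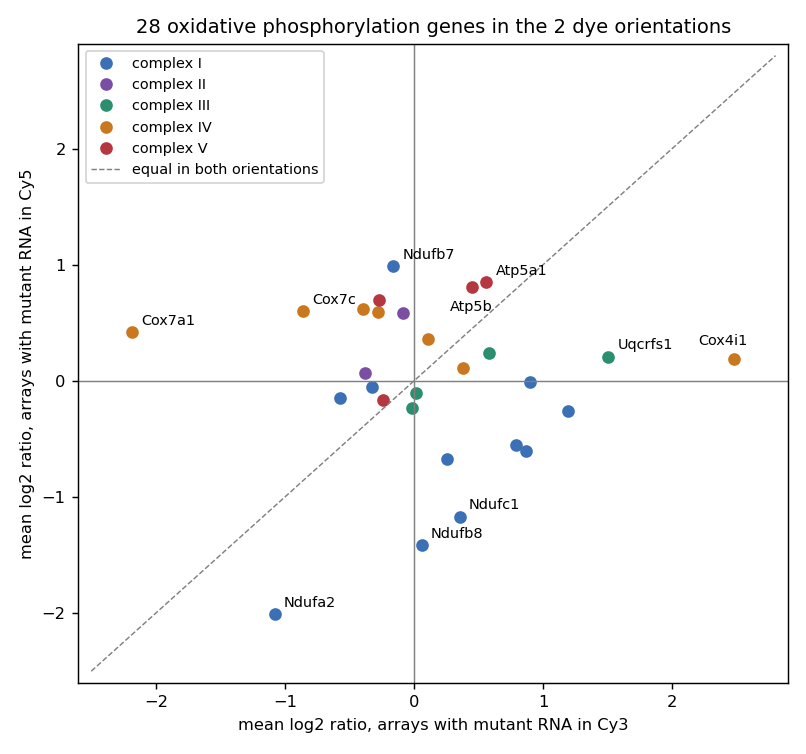
Mean log2 ratio of each of the 28 fitted genes over the arrays with mutant RNA in Cy3 (x axis) and over those with it in Cy5 (y axis), coloured by complex, with the line of equal values dashed. Ndufa2 is far below 0 on both axes and Atp5a1 and Atp5b above 0 on both, while Cox7a1, Cox7c and Ndufc1 sit in quadrants where the orientations disagree.

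The 14 genes with values on at least 3 arrays that were not fitted all lacked values on arrays with mutant RNA in Cy3, 12 of them on array 1 and 11 on array 3. Their means over arrays ran from -0.45 for Ndufa10 to 3.41 for Ndufa9. The counts over the fitted genes do not stand for all 42. Among the 28 fitted, none lacked a value on array 1, 9 lacked one on array 2 and 10 on array 3, and 6, Ndufa2 among them, lacked both.

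Other genes of energy supply, in mitochondria and in glycolysis, gave no call. In 8 lists of 143 genes, 60 had values on at least 3 arrays and 35 were fitted, of which none was higher or lower (limma), beside 3.47% of all genes. At an unadjusted p below 0.05, 2 were higher and 0 lower, beside 19.5% of all genes. Of the 35, 23 had ratios above 0 and 12 below, with a median of 0.17, which was 0.075 without array 8. The tricarboxylic acid cycle, which feeds complexes I and II, had 4 genes between Suclg1 at -0.48 and Dld at 0.26. Dld had a value of 4.67 on array 3, and its ratio was -0.31 without that array. Electron carriers had 4, with cytochrome c, Cycs, at 0.20 and Pdss1, which makes the tail of ubiquinone, at -0.29. Carriers and porins of the inner and outer membranes had 6, between Ucp3 at -0.42 and Vdac2 at 0.48, and regulators of mitochondrial biogenesis had 3, between Tfam at -0.22 and Pprc1 at 0.37. Protein import and folding had a median of 0.66, with 6 of 7 genes above 0 and Timm8b, an import chaperone, at 1.08 ± 0.44 (SE, adjusted p = 0.207). Array 8 was far above the other arrays for Timm8b (5.37), Hspa9 (6.46) and Phb (3.63), and without it Timm8b was at 0.52 and the list's median at 0.19. Pdk4 at -0.17 and Uqcc2 at 0.19 were the 1 gene fitted in the lists of pyruvate dehydrogenase and of assembly factors. Of 9 genes of glycolysis, 6 were above 0, with a median of 0.17 that was 0.018 without array 8.

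Regulatory sequence was read for the genes from RefSeq promoters of the build GRCm38.p6, as the 250 bases before the start of the gene, which 36 of the 42 genes had. The letters searched on both strands were GCATGCGC, a core of the site of nuclear respiratory factor 1, CCGGAAG, a core of ETS factors such as GABPA, AAGATGGC, a core of YY1, and TATAAA. GCATGCGC was in 4 of 36, or 11.1%, against 2.56% of 27025 genes with a promoter of the same length, and CCGGAAG in 7, or 19.4%, against 7.83%. AAGATGGC was in 1 (2.78% against 1.83%) and TATAAA in 3 (8.33% against 14.3%). A match describes letters alone and was not set against the ratios. Of the 36 promoters, 4 held at least 2 of these motifs, those of Atp5j, Atp5l, Cox6a1 and Ndufb7. Those of Ndufb7, the 1 gene of the 4 that was fitted, and of Cox6a1, the widespread form in a pair described above, are shown as examples, with the motifs in capitals. In Ndufb7 (chr8:83566508-83566757, plus strand) CCGGAAG starts 20 bases and TATAAA, on the other strand, 235 bases before the start of the gene. In Cox6a1 (chr5:115348959-115349208, minus strand) GCATGCGC occurs on both strands in an overlapping run that begins 162 bases before the start, and CCGGAAG lies on the other strand at 16 bases.
Ndufb7: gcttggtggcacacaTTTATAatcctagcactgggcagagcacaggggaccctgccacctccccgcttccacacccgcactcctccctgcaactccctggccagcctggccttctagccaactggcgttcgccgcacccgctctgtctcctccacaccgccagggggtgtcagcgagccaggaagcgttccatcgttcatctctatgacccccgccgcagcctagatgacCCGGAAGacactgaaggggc
Cox6a1: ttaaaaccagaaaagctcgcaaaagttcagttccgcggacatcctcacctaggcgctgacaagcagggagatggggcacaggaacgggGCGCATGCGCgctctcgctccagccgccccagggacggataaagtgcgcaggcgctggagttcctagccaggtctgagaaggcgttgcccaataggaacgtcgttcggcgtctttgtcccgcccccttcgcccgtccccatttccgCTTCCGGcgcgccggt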

How the data were processed

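The authors deposited 1 table of log2 ratios of the 2 channels of each array, as the values are read here; values this large in base 10 lie beyond what a scanner measures, while natural logarithms remain possible. Hybridization followed standard protocols, per the labels. How images were analysed, ratios normalized and values dropped is not given in the sources used here. Spots of blanks, buffer and a control oligonucleotide (864, 275 and 96) were left out, and 232 Gapdh spots averaged. Rows were named through RefSeq accessions in a table of GRCm38.p6, 6749 by accession and 77 by synonym, and probes of 1 gene were averaged.

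Replicate Gapdh spots correlated below 0 in all 16 pairs of arrays of opposite orientation (median r = -0.45) and above 0 in all 12 of the same (0.55), so the table was read as already turned to 1 direction. Over all probes the split was less clear. Pairs of opposite orientation had a median r of -0.02, with 10 of 16 below 0, and pairs of the same orientation 0.49. Genes with values on at least 3 arrays of each orientation were fitted with a mean and a dye term in limma 3.58.1 (R 4.3.3), with Benjamini-Hochberg adjustment over 3779 genes. Data were simulated with independent normal noise of the same spread on every array for a given gene. There, 60% of shifts of 1 and 97% of shifts of 2 were recovered, with 5.99% of calls false. The real arrays differ in spread, hold values far from the rest and share animals, so these rates may not hold for them. The number of arrays limits the precision.

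Genes given array by array are those past the threshold, the highest and lowest fitted ratio of each complex, fitted genes with 1 sign on every array that measured them (at least 6), and paralogue pairs, with further genes chosen after their values were seen (Ndufs4, Ndufa9, Ndufb7, Atp5b and Atp5g1). The members, lists and rules were chosen with earlier results of these data known. Probe sequences were not analysed here, so signal shared with related genes or pseudogenes was not tested.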

Additional observations from a re-analysis of the deposited data

Results flagged for a closer look

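Dixon's test was run on 47 sets of values over arrays, 41 single genes with values on 4 to 8 arrays and 6 medians. In 5 an array lay far from the others. Chance gives about 5% of sets only where all arrays share the same spread. All 5 fell on array 2, 3 or 8, the arrays of widest spread over all rows. The share over all genes was not computed. Array 8 was highest for Cox4i1 (6.45, next 1.83) and for Uqcrfs1 (4.39, next 1.39). Array 2 was lowest for Ndufb8 (-5.52, next -0.45). Array 3 was highest for Ndufb5 (2.98, next 0.48) and for the median of the complex I genes (0.99, next 0.08).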

How the results depend on the processing

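Ndufa2 stayed lower past the threshold in all 8 fits that left out an array (ratio -1.66 to -1.37, adjusted p 0.00552 to 0.0398), though arrays 2 and 3 had no value for it, and in 10 of 11 other alternatives that could fit it. The exception was the reading as Cy5 over Cy3 (-0.47, adjusted p = 0.185). Ndufa2 kept its ratio of -1.54 by construction without a dye term and over probes. With genes on all 8 arrays alone it was not fitted, so 0 genes of the complexes were lower; that count was also 0 as Cy5 over Cy3, and 2 with array weights, by Ndufb11. Higher genes numbered 2 with quantile normalization (Atp5a1 and Cox4i1), 1 with array weights (Atp5a1) and 3 with robust regression (Atp5a1, Atp5b and Cox4i1); the cause was not tested. The count over all genes, 131, was 64 without a dye term, 66 as Cy5 over Cy3, 350 with quantile normalization, 216 with scaling to one median absolute deviation, 81 on all 8 arrays, 491 with array weights, 378 with robust regression, 504 over 11974 probes, 12 on arrays 4 to 8 alone and 53 to 130 without 1 array. By direction it was 25 higher and 106 lower, against 62 and 4 as Cy5 over Cy3, 128 and 222 with quantile normalization, 55 and 161 with scaling, 184 and 307 with array weights and 153 and 225 with robust regression. On arrays 1, 4, 5, 6 and 7 alone, which leaves out the arrays of widest spread and was added once the data had been seen, Ndufa2 was at -1.50 (adjusted p = 0.00921), the 1 gene of the complexes called. The median of complex IV was 0.44 as Cy5 over Cy3, and that of complex III 0.86 on all 8 arrays, where Uqcrfs1 alone was left.

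The 28 genes had 571 values under alternatives. Many could not change sign, as over probes, or where the array left out had no value for the gene. The count that stayed is thus not a measure of stability. Of the 571, 529 kept their direction and side of the threshold, 7 passed it, 1 lost it and 34 changed sign. Read as Cy5 over Cy3, 14 did: Atp5e 0.035, Cox4i1 -1.15, Cox7a1 1.30, Cox7a2 -0.13, Cox7c 0.73, Ndufa12 -0.73, Ndufa5 -0.67, Ndufa7 -0.74, Ndufb11 0.21, Ndufb2 0.14, Ndufb5 -0.45, Sdhc 0.22, Uqcr11 -0.17 and Uqcrfs1 -0.65. On arrays 4 to 8 alone these were Cox7a1 0.024, Cox7c 0.21, Ndufa7 -0.13, Ndufb8 0.038 and Uqcrb 0.010. Uqcrc1 changed sign with quantile normalization (0.038), scaling (0.013), array weights (0.090) and on arrays 1, 4, 5, 6 and 7 (0.11), and Sdhc with array weights (0.038). Without 1 array, ratios ran from -0.085 to 0.34 for Ndufa5, -0.064 to 0.36 for Ndufa7, -1.01 to 0.0055 for Ndufb8, -0.23 to 0.017 for Uqcrb, -0.18 to 0.14 for Uqcrc1 and -0.33 to 0.020 for Cox7c. Every array holds both groups, so each ratio pairs mutant with wild type within an array. Animals shared between arrays could not be accounted for, because no label ties arrays to animals.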
